A study of Bos taurus with 18 samples.

Results

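Among the 9 hypothalamus libraries of this study, 8 fell into 2 expression states on the first principal component of their gene counts, and 1 lay between them. The states take 8 of the 18 libraries of the series. State A holds 3 libraries, from the 6-month replicates 1 and 3 and the 30-month replicate 2. State B holds 5 libraries, from the 6-month replicate 2, the 18-month replicates 1 and 3 and the 30-month replicates 1 and 3. The 18-month hypothalamus replicate 2 was left out of both as intermediate. The states were chosen by the measured values themselves and are not groups of the study's design, so differences between them are described without a test.

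The libraries came from 9 Angus cows, 3 at each of 3 ages, and each cow gave a hypothalamus and a pituitary library of poly(A) RNA. Per the labels, cows of 6 months had just been weaned, cows of 18 months were sexually mature and cows of 30 months had produced a first calf. The labels give no treatment, and no cow was in heat when slaughtered. State A therefore joins recently weaned and post-calving animals, and state B joins animals of all 3 ages. Replicates are separate cows. The gene tables name gene models by number only and do not pair them with gene symbols, so the tissue labels could not be checked against marker genes, and gene models are described by their levels, lengths and positions.

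The hypothalamus holds neurons that release small peptides into the vessels leading to the pituitary. There these peptides act on the secretion of growth hormone and of the hormones that drive the ovary, thyroid and adrenal. Besides these neurons the tissue contains astrocytes, oligodendrocytes, microglia and vessel cells, and the pituitary contains its own endocrine and supporting cells. In RNA from whole tissue, fewer cells of a type and less RNA per cell cannot be told apart.

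No difference in depth between the states was detected. Total gene counts averaged 32220993 ± 2120381 in state A (SD, n = 3) and 32478968 ± 2502183 in state B (SD, n = 5), and a two-sided exact permutation test over 56 splits gave p = 0.911. No difference in age was detected at this number of animals: 2 of 3 state A cows and 1 of 5 state B cows were 6 months old (two-sided Fisher's exact test, p = 0.464). Both measures were independent of the rule that set the states. Genotypes at polymorphic sites paired each hypothalamus library with the pituitary library of the same age and replicate number, with 99.3% to 99.7% of genotypes identical within the 9 pairs and 50.1% to 66.7% between pairs.

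The first component carried 36.3% of the variance of log2 CPM (counts per 1000000 counts of the library) over the 9 hypothalamus libraries, and the second carried 13.2%. State A libraries scored 71.9 (6-month replicate 1), 110.4 (6-month replicate 3) and 84.3 (30-month replicate 2). In state B, 4 of the 5 libraries scored between -77.8 and -63.0, and the 6-month replicate 2 scored -26.5. The 18-month replicate 2 scored 40.9, nearer to state A than to state B on this axis, and stood alone on the second component with a score of 101.0. These scores set the groups, and the 40.9 just outside state A and the -26.5 just inside state B are the values nearest to the division.

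**Figure D1:**
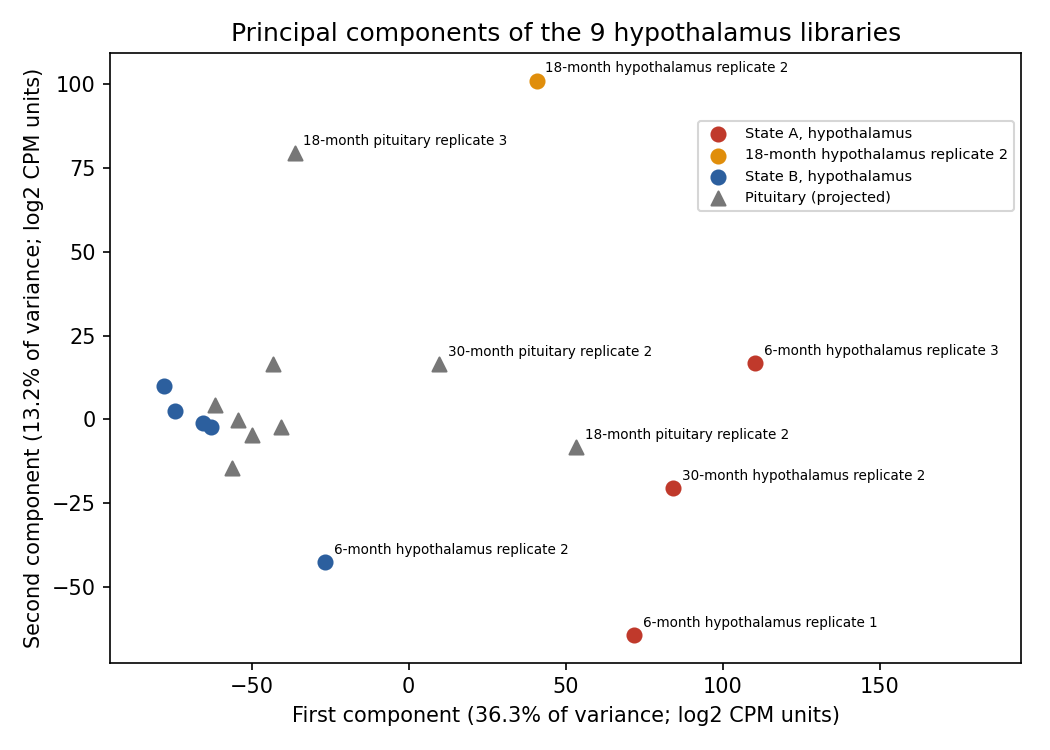
Scores on the first and second principal component (both in log2 CPM units) of the hypothalamus libraries, with pituitary libraries projected onto the same axes as triangles. The 3 state A libraries lie at 71.9 to 110.4 on the first component and the 5 state B libraries at -77.8 to -26.5; the 18-month pituitary replicate 2 projects to 53.4.

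The whole profiles differed more between the states than within them, an order that the cut on the first component of these same values favours. The root mean square log2 difference over 19707 gene models had a median of 1.43 between a state A and a state B library (15 pairs), 1.15 within state A (3 pairs) and 1.02 within state B (10 pairs). State A was the looser group: a state A library differed by at least 4-fold from the mean of the other state A libraries on 4.96% to 6.66% of gene models, and a state B library differed from the mean of its own state on 2.96% to 4.15%. Each state A library was set against the mean of 2 libraries and each state B library against the mean of 4.

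A gene model was taken to separate the states when the libraries of the states did not overlap and the mean log2 CPM differed by at least 2, a 4-fold difference. By this rule 478 of 19707 gene models were higher in state A (2.43%) and 590 were lower in state A (2.99%). Without the 4-fold requirement, 2707 of the 19707 did not overlap with state A above and 3118 of the 19707 with state A below. The states were set on these same values, so such counts describe that choice. The smallest difference counted was 2.0002 among the higher gene models, with 1.9981 the largest left out, and -2.000734 among the lower, with -1.999959 left out. The median difference was 2.83 log2 units in the higher set and -2.74 in the lower set, and the largest were 7.65 and -9.68. On the scale of log2 FPKM (fragments scaled by gene model length and library size) with a pseudocount of 1, which compresses low levels, 113 and 107 gene models separated the states, of which 111 and 104 were among the 478 and 590.

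The separating gene models were mostly of modest level. Those higher in state A had a median of the mean log2 CPM of 2.53 in state A and -0.57 in state B; those lower in state A had -0.99 in state A and 2.19 in state B, and the median over all tested was 3.92 in state A and 3.90 in state B. In the lower set, 295 of 590 were under 1 CPM in every state A library, and in the higher set 200 of 478 were under 1 CPM in every state B library. Of all 19707 tested, 2889 were under 1 CPM in every state A library and 2647 in every state B library. New genes that the authors added to the annotation made up 26.99% of the higher and 31.7% of the lower set, and 16.9% of all tested. Median gene model length was 3478.5 bases in the higher set, 4046.5 in the lower set and 4516 overall. Abundant gene models were included too: of 11445 with a mean of at least 10 CPM over the 18 libraries, 143 were higher (1.25%) and 193 lower (1.69%) in state A.

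As a share of all counts, the higher set took 1.84%, 2.78% and 2.06% in the state A libraries (6-month replicate 1, 6-month replicate 3 and 30-month replicate 2). In state B it took 0.250% to 0.334% in 4 libraries and 0.636% in the 6-month replicate 2. The lower set took 0.407%, 0.364% and 0.359% in the same order of state A libraries, and 1.99% to 3.20% in state B. The 18-month hypothalamus replicate 2 lay between on both, at 1.25% for the higher and 1.46% for the lower set.

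Levels were followed on the linear scale in the members whose higher state averaged at least 10 CPM, which were 204 higher and 223 lower gene models. Members were chosen on these same values, so their levels in the state A and state B libraries describe that choice. The median lower member stood at 17.8%, 10.6% and 15.3% of the state B mean in the 3 state A libraries, and at 75.9% to 112.8% in the state B libraries. In each state A library at most 3 of the 223 were above 50% of the state B mean, and 32, 72 and 41 were under 5% of it. The median higher member stood at 77.8%, 124.2% and 91.1% of the state A mean in the state A libraries, and at 9.73% to 12.98% in 4 state B libraries and 27.8% in the 6-month replicate 2. The 6-month hypothalamus replicate 3 was the most extreme state A library in both directions, and the 6-month replicate 2 was the state B library nearest to state A in both.

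The gene model of largest difference among numbered, well-expressed gene models higher in state A was gene23152, of 3886 bases, with a single 5′ UTR (untranslated region) site at chromosome 19, position 40636739. Its level was 40.3, 68.3 and 89.1 CPM in the 6-month replicate 1, the 6-month replicate 3 and the 30-month replicate 2 of state A. In state B it had 5.80 CPM in the 6-month replicate 2, 2.10 CPM in the 30-month replicate 1 and 0 CPM in the other 3 libraries. The means were 65.9 ± 24.5 CPM in state A (SD, n = 3) and 1.58 ± 2.53 CPM in state B (SD, n = 5). The intermediate library had 35.8 CPM, below all of state A and above all of state B. In the pituitary, gene23152 had counts in 1 of 9 libraries, the 30-month replicate 2, at 4.57 CPM. Reads at its site were few, at 2.36, 4.83 and 8.79 RPM (reads per 1000000 site reads) in state A, 1.24 RPM in the 6-month replicate 2 of state B and 0 in the other 4.

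The next was gene10566, of 4377 bases, on chromosome 8, whose 7 polymorphic sites (5 intronic, 1 coding and 1 in the 3′ UTR) span positions 63704652 to 63726752. It had 23.2, 20.6 and 24.9 CPM in state A, in the order above, and 4.94, 2.19, 0, 0 and 0.033 CPM in state B (6-month replicate 2, 18-month replicates 1 and 3, 30-month replicates 1 and 3). The state A libraries lay close together and the state B libraries were spread from 0 upward. The intermediate library had 10.8 CPM, and the pituitary libraries had 0 to 6.86 CPM, with 5.91 in the 18-month replicate 2 and 2.24 in the 30-month replicate 2. Its site reads differed less than its counts between the states, by 1.66 against 6.11 log2 units: they were 6.06, 7.25 and 6.82 RPM in state A and 1.05 to 2.95 RPM in state B, the libraries with 0 counts included. The 30-month pituitary replicate 2 had 4.75 RPM. Both gene models were chosen by the size of the difference, so these values describe the choice.

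Among the numbered, well-expressed gene models with a polymorphic site that were lower in state A, gene9580 differed most. It has 4708 bases and lies on chromosome 7, with 278 polymorphic sites between 54152604 and 54281674, of which 253 are intronic and 19 coding. It had 0 counts in all 3 state A libraries and 16.2, 27.8, 60.4, 59.1 and 17.9 CPM in state B (6-month replicate 2, 18-month replicates 1 and 3, 30-month replicates 1 and 3). Against a floor of 3 counts per library, its mean of 36.3 ± 21.9 CPM in state B (SD, n = 5) makes it at least 382-fold lower in state A. It also had 0 counts in 4 of 9 pituitary libraries, of which the 30-month replicate 2 was one and the 18-month replicate 2, at 14.99 CPM, was not. The reads at its polymorphic sites did not follow the counts: they ran from 294 to 329 RPM in state A and from 349 to 588 RPM in state B. The bound holds for the deposited counts alone, and whether the zeros come from how reads were assigned to this gene model was not tested.

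The second was gene11244, of 20009 bases, on chromosome 9, with 148 polymorphic sites between 28072359 and 28213748, of which 143 are intronic, 3 coding and 2 in the 3′ UTR. Its level was 0.711, 0.865 and 0.662 CPM in state A, and 180 to 351 CPM in state B with a mean of 254 ± 66.1 CPM (SD, n = 5). The intermediate library had 82.5 CPM. Of the pituitary libraries, the 18-month replicate 2 had 0.608 CPM, within 0.1 CPM of the state A range, the 30-month replicate 2 had 64.4 CPM, and the other 7 had 184 to 337 CPM. Its site reads were 0 in all state A libraries and in the 18-month pituitary replicate 2, 31.8 RPM in the intermediate library, 20.4 RPM in the 30-month pituitary replicate 2, and 79.7 to 133 RPM in state B. In the other 7 pituitary libraries they were 84.5 to 153 RPM in 6 and 25.5 RPM in the 18-month replicate 3, which had the highest pituitary count of this gene model, at 337 CPM.

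**Figure D2:**
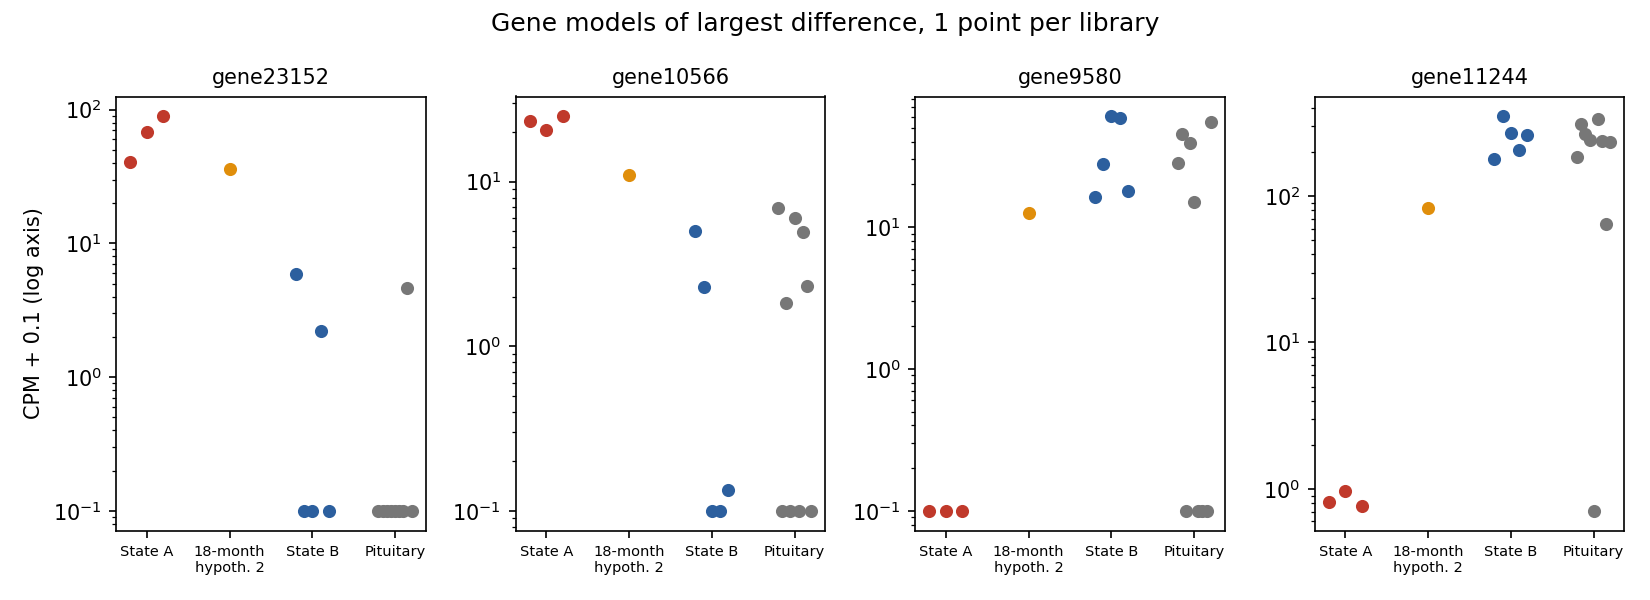
Level of the 4 named gene models (CPM plus 0.1, log axis), 1 point per library, with state A, the intermediate 18-month hypothalamus replicate 2, state B and the 9 pituitary libraries from left to right. The intermediate library lies between the states for gene11244 at 82.5 CPM, and 1 pituitary library, the 18-month replicate 2, lies at 0.608 CPM, beside state A at 0.662 to 0.865 CPM.

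Depth at single-nucleotide polymorphism (SNP) sites, deposited by the authors, gave a second readout of the same libraries, from the same reads but counted by position. Summed site depth per gene model could be used for 209 of the 478 higher and 262 of the 590 lower members, those with at least 100 site reads over the 8 libraries. The median state A minus state B difference of site reads was 2.29 in the higher and -2.21 in the lower members, against 2.79 and -2.75 for their gene counts, and -0.05 over all 12520 gene models with site reads. The direction was the same as for the counts in 205 of 209 and 258 of 262. Of these, 187 of 209 were higher by at least 1 log2 unit in site reads, as were 6.46% of all, and 236 of 262 were lower by at least 1, as were 7.58% of all. In 12 higher and 14 lower members the site reads differed by less than 0.5, as they did in 7559 of all 12520. The lower member gene9580, at -8.99 in counts, had -0.52 in site reads. Since the same reads entered both tables, this describes how the counts were made and adds no replicate.

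**Figure D3:**
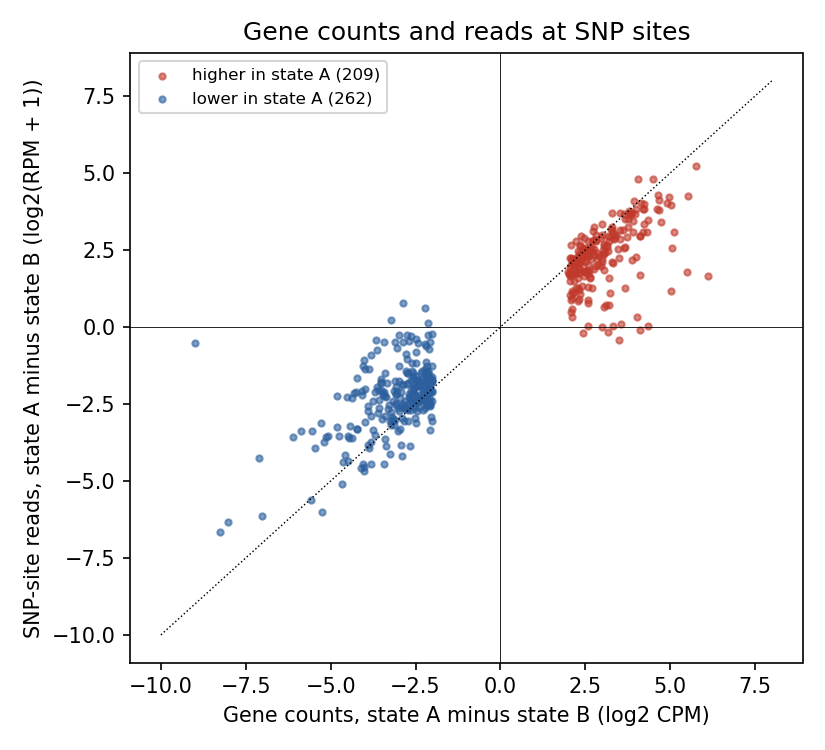
Difference between the states in gene counts (horizontal, log2 CPM) and in SNP-site reads (vertical, log2 of RPM plus 1) for 209 higher and 262 lower gene models, 1 point each, with the line of equality dotted. Most points lie near the line, and the isolated point at the far left with a site difference of -0.52 is gene9580.

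A chromosome could be given to 310 of 478 higher and 351 of 590 lower members, which lay on 30 chromosomes. On no chromosome did the higher members exceed 3.79% of the gene models tested there (chromosome 21) or the lower members 3.53% (chromosome 12). No window of 1000000 bases held more than 3 higher members or 4 lower members. The window from 40000001 to 41000000 on chromosome 19, which contains gene23152, held 3 higher members of 24 gene models tested. The windows with most lower members were 50000001 to 51000000 on chromosome 18, with 4 of 27, and 59000001 to 60000000 on chromosome 3, with 4 of 12. The window from 39000001 to 40000000 on chromosome 16 held 3 lower members of 7. Whether members lie closer together than other gene models was not tested.

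Other measures of the libraries moved with the states in part. Introns took 19.8%, 13.7% and 16.2% of SNP-site reads in state A and 20.2% to 21.6% in state B, without overlap. Across gene models, log count and log length correlated at r = 0.551, 0.489 and 0.521 in state A and r = 0.549 to 0.569 in state B, with overlap. Sites in 3′ UTRs took 23.2% to 26.6% of site reads in state A and 22.6% to 23.8% in state B. The 6-month hypothalamus replicate 1 was heterozygous at 0.734% of sites where its pituitary partner was homozygous, and the other 8 hypothalamus libraries at 0.195% to 0.369%. In state A the 6-month replicate 3 had 0.210% and the 30-month replicate 2 had 0.195%, so this measure did not follow the states. The part of these measures in the difference between the states was not tested.

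To place the other libraries, each gene model was given a scale on which 0 is the mean of state B and 100 the mean of state A in log2 CPM, and the median over the members was taken. State A libraries stood at 91.6 to 109.8 on the higher and 88.2 to 113.7 on the lower members, as the choice of members fixes. In state B the 6-month replicate 2 stood at 33.7 and 8.34, and the other 4 at -13.0 to 0 and -3.72 to -0.90. When each library was placed on gene models chosen without it, the state A libraries stood at 82.1, 101.1 and 87.7 on the higher and 65.0, 100 and 80.8 on the lower members. Placed likewise, the 6-month replicate 2 stood at 43.4 and 15.8 and the other state B libraries at -11.9 to 3.49 and -2.07 to 1.09. The states of these libraries had been set with their own values, so the places remain a description.

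The 18-month hypothalamus replicate 2 lay between the states on both sets. It stood at 71.9 on the higher members (quartiles 49.4 and 87.0) and at 43.5 on the lower members (quartiles 19.7 and 89.3). On linear CPM the medians were 43.1 and 70.9, so which set placed it nearer to state A depended on the scale. It was nearer to state A than to state B on 356 of 478 higher and 272 of 590 lower members. Its median level in the well-expressed members was 54.4% of the state A mean for the higher and 47.3% of the state B mean for the lower. By root mean square difference it was about equally far from state A (median 1.28) and state B (median 1.32), against medians of 1.15 within state A and 1.02 within state B. It also had 13.7% of site reads in introns and 30.4% in 3′ UTRs, the highest 3′ UTR share among the hypothalamus libraries, whose part in its place was not tested.

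Among the pituitary libraries, the 18-month replicate 2, from the same cow as the intermediate hypothalamus library, projected to 53.4 on the first component of the hypothalamus. The 30-month replicate 2, from the same cow as the state A library of that age, projected to 9.78. The other 7 pituitary libraries projected to between -61.6 and -36.2, within the range of state B. The 2 libraries were singled out because earlier results of these data had shown them apart.

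On the lower members the 18-month pituitary replicate 2 stood at 100, the mean of state A (quartiles 70.7 and 133), and was nearer to state A on 497 of 590. A gene model with 0 counts in this library and in all state A libraries takes exactly 100. Of the 590, 295 were under 1 CPM in every state A library, a level that does not require 0 counts. On lower members with a mean of at least 10 CPM, the 18-month pituitary replicate 2 stood at 105.7. On the higher members it stood at 39.1 and was nearer to state A on 204 of 478. The 30-month pituitary replicate 2 stood at 44.6 on the lower and 33.8 on the higher members, and was nearer to state A on 273 of 590 and 172 of 478. On linear CPM the 18-month replicate 2 stood at 101.8 on the lower and 15.3 on the higher members, and the 30-month replicate 2 at 73.1 and 11.3. On the 113 higher gene models chosen anew on log2 FPKM, the 18-month replicate 2 stood at 24.4. It stood at 52.8 when higher gene models with a difference of at least 1 were included. The other 7 pituitary libraries stood, in log2 CPM, at -1.15 to 17.4 on the lower and -16.7 to 13.5 on the higher members. In the well-expressed lower members the median level was 9.92% of the state B mean in the 18-month replicate 2, 45.2% in the 30-month replicate 2 and 74.9% to 107% in the other 7. In the well-expressed higher members it was 28.9%, 26.0% and 7.06% to 16.1% of the state A mean in the same order.

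**Figure D4:**
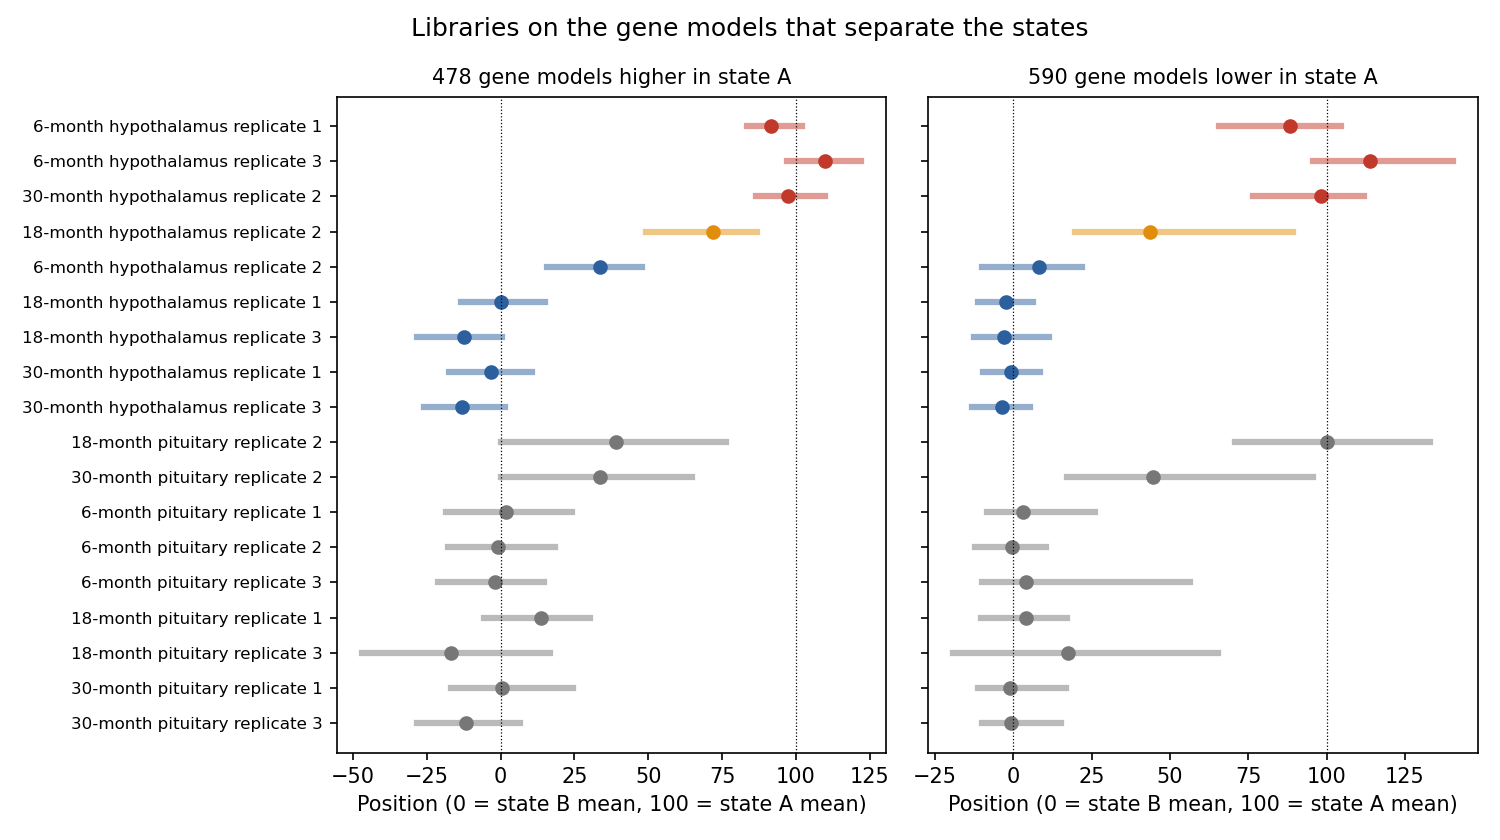
Place of each library, in log2 CPM, between the mean of state B (0) and the mean of state A (100) on the 478 gene models higher (left) and 590 lower (right) in state A, with points for the median and bars for the quartiles over gene models. The 18-month pituitary replicate 2 stands at 100 on the lower set and at 39.1 on the higher set, and the intermediate hypothalamus library at 43.5 and 71.9.

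Pituitary libraries were also compared with each other, with no hypothalamus library in the reference means. The members had been chosen on the hypothalamus libraries, and the filter and scaling factors used all 18 libraries. Set against the mean of the 7 other pituitary libraries, the 18-month replicate 2 was at least 4-fold higher on 136 of the 478 higher members (28.5%, against 6.88% of all gene models) and at least 4-fold lower on 385 of the 590 lower members (65.3%, against 7.5% of all). The opposite direction was seen for 21 of the higher and 9 of the lower members. These members made up 10.04% of all gene models higher in that library and 26.05% of those lower. On log2 FPKM with a pseudocount of 1, the counts were 18 higher members (3.77%, against 1.23% of all) and 108 lower members (18.3%, against 1.7% of all). The 30-month replicate 2 was at least 4-fold higher on 102 higher members (21.3%, against 5.13% of all) and lower on 161 lower members (27.3%, against 3.74% of all). On log2 FPKM with a pseudocount of 1, the counts were 19 higher members (3.97%, against 1% of all) and 21 lower members (3.56%, against 0.223% of all). Each of these comparisons sets a single library against 7 and has no replicate check, and both use the same 7 libraries. The 18-month replicate 2 and the 30-month replicate 2, singled out beforehand, were left out of every reference mean, here and for the libraries below.

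Within the lower set, the members at least 4-fold lower in the 18-month pituitary replicate 2 had a higher median length and a larger median difference between the states than the rest. The 385 had a median length of 4620 bases and a median state difference of -3.01 log2 units, and the remaining 205 had 2957 bases and -2.45. On the higher set the 136 members and the remaining 342 differed little, with median lengths of 3246.5 and 3526.5 bases and state differences of 2.89 and 2.80. The share over all gene models is not matched for level, and the members had lower median levels than all gene models, as given above.

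The pituitary libraries of the other state A cows had smaller shares. The 6-month pituitary replicate 1 was at least 4-fold higher on 17 of 478 higher members (3.56%, against 1.54% of all) and lower on 18 of 590 lower members (3.05%, against 1.52% of all), relative to 6 other pituitary libraries. The 6-month replicate 3 was higher on 14 higher members (2.93%, against 1.37% of all) and lower on 69 lower members (11.7%, against 2.64% of all). In the 18-month replicate 3, whose site reads lay toward 3′ UTRs (39.2%), 31 higher members were higher (6.49%, against 6.71% of all) and 111 lower members lower (18.8%, against 14.3% of all). The 18-month replicate 1, from a state B cow, was higher on 37 higher members (7.74%, against 1.95% of all) and lower on 19 lower members (3.22%, against 1.85% of all). Its share of the higher members was above those of the 6-month libraries of state A cows. The 30-month replicate 1 was higher on 24 (5.02%, against 1.9% of all) and lower on 11 (1.86%, against 1.59% of all). In the 6-month replicate 2, 13 higher members (2.72%, against 2.73% of all) and 10 lower members (1.69%, against 1.64% of all) passed, and in the 30-month replicate 3, 7 (1.46%, against 1.58% of all) and 11 (1.86%, against 1.74% of all).

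**Figure D5:**
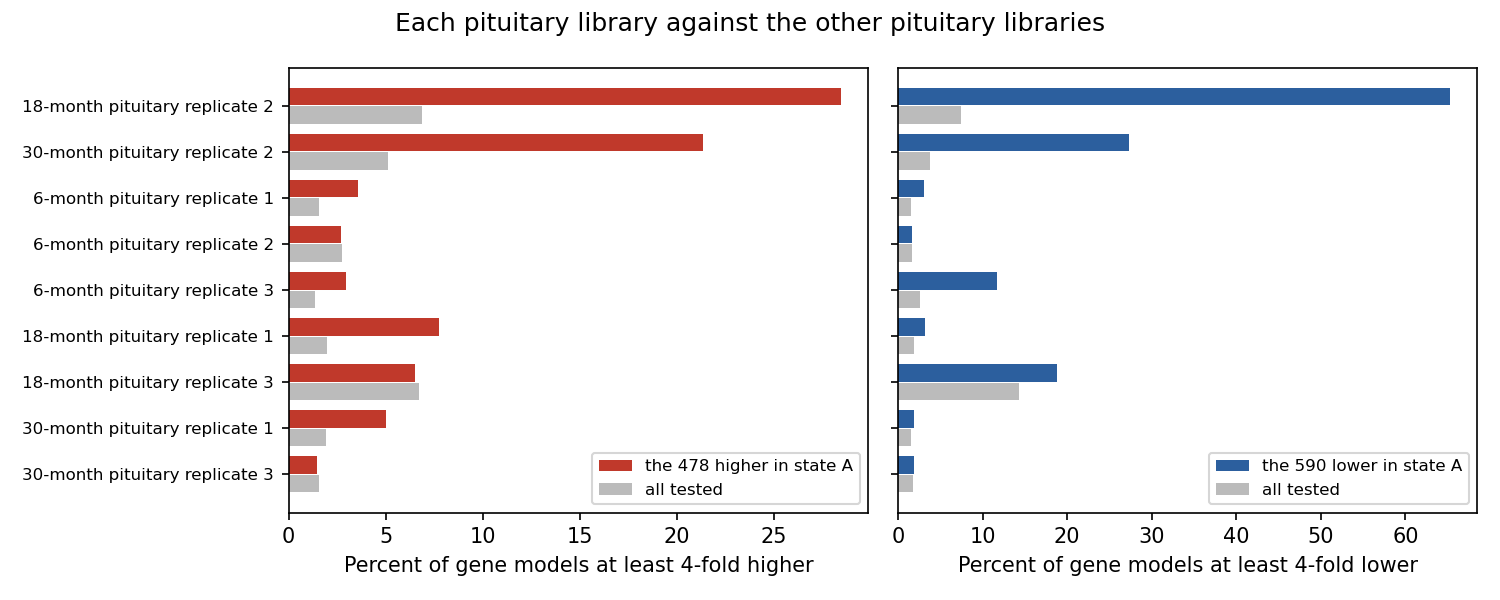
Percent of gene models at least 4-fold higher (left) or lower (right) in each pituitary library than in a mean of other pituitary libraries. Gene models that separate the hypothalamus states are coloured and all tested are grey. The 18-month replicate 2 and the 30-month replicate 2 were left out of every mean. Each mean held 7 libraries for these and 6 for the rest. The 18-month replicate 2 reaches 28.5% and 65.3%, and the 30-month replicate 2 reaches 21.3% and 27.3%.

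Whether state A cows also differed from state B cows in the pituitary was tested with edgeR's quasi-likelihood test on pituitary libraries, which the rule had not used (3 against 5, without the cow of the intermediate library). It called 1 of 18369 gene models at an adjusted p under 0.05 (0.00544%), and 629 had an unadjusted p under 0.05 (3.42%). Of the separating gene models, 22 of 337 tested higher members and 60 of 569 tested lower members had an unadjusted p under 0.05, and none passed the adjustment. DESeq2 called 22 gene models and limma-voom with sample quality weights 2. The median log2 fold change was 0.41 over the higher members, -0.41 over the lower members and 0.01 over all. The biological coefficient of variation was 56.2%, and the 30-month replicate 2 is 1 of the 3 state A cows' libraries in this test. Leaving out the 6-month replicate 3 gave 0 calls, leaving out the 18-month replicate 1 or the 18-month replicate 3 gave 2, and age as a covariate gave 0.

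The gene model called was gene24321, of 4484 bases, on chromosome 21, with 2 polymorphic sites between 781636 and 784207; it is named here because it passed, after its values had been seen. It had 1.68, 1.41 and 0.889 CPM in the pituitary of state A cows and 29.96 to 41.04 CPM in that of state B cows (log2 fold change -4.76 ± 0.32, SE; edgeR adjusted p = 0.00288). It is no member of the separating sets. In the hypothalamus it had 25.9, 40.6 and 4.88 CPM in state A, and in state B 1.63 CPM in the 6-month replicate 2, 0.079 CPM in the 18-month replicate 1 and 31.9 to 39.7 CPM in the other 3. Its site reads did not follow its counts, at 7.43, 6.88 and 2.64 RPM in the pituitary of state A cows and 2.40 to 6.79 RPM in that of state B cows.

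By whole profile, the 18-month pituitary replicate 2 was nearer to state A hypothalamus libraries (median root mean square difference 1.34) than to state B (1.59) or to the other 7 pituitary libraries (1.64). The 30-month pituitary replicate 2 was about equally far from state A (1.38), state B (1.36) and the other 7 pituitary libraries (1.36). Those 7 lay as near to the state B hypothalamus libraries (median 1.04 over 35 pairs) as to each other (1.06 over 21 pairs).

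Differences between libraries of the same age were compared across all 19707 gene models as a description, since gene models are not independent replicates. The difference of the 6-month hypothalamus replicates 1 and 3 from replicate 2 correlated at r = 0.454 with that of the 30-month hypothalamus replicate 2 from replicates 1 and 3; the rule had used these libraries. With the 18-month pituitary replicate 2 against replicates 1 and 3, the 6-month difference had r = 0.241 and the 30-month hypothalamus difference r = 0.335. With the 30-month pituitary replicate 2 against replicates 1 and 3, they had r = 0.231 and r = 0.332. The 2 pituitary differences had r = 0.357 with each other. The 18-month pituitary replicate 3, a reference in the 18-month difference, had 39.2% of site reads in 3′ UTRs, and its part was not tested. No library enters more than 1 of these differences, although hypothalamus and pituitary libraries of the 30-month cows come from the same animals.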

How the data were processed

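RNA of 9 hypothalamus and 9 pituitary samples was sequenced as poly(A) libraries. The authors deposited whole-number read counts for 27376 gene models, not normalized, with gene model lengths, and FPKM values for the same gene models, per the file headers scaled by length and library. A deposited table of 992284 SNP sites gives genotypes and the read count at each site, per the file headers. HISAT2, StringTie, GATK and DESeq are listed in the submitters' processing notes; their roles and versions and the genome build are not given in the sources used here. Chromosome names are those of the UMD assembly at NCBI, and coordinates are printed as deposited. None of the identifiers (0 of 27376) matched the RefSeq gene table, so no symbol, sequence or marker list was used. Total counts ran from 28724861 to 38036840 per library.

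Counts were filtered by edgeR 4.0.16 (R 4.3.3) over the 6 tissue and age groups, which left 19707 gene models, and turned into log2 CPM with TMM factors and a prior count of 2. The states, members and lists were chosen with earlier results of these data known. Named gene models are those with a gene number, a SNP site, no overlap and at least 10 CPM in the higher state, 2 of largest difference in each direction. The pituitary test used edgeR's quasi-likelihood fit on 18369 gene models with Benjamini-Hochberg adjustment and 6 residual degrees of freedom; the standard error is the fold change over the root of F. DESeq2 1.42.0 and limma 3.58.1 (voom with sample quality weights) were alternatives. Replicate numbers pair the hypothalamus and pituitary libraries of a cow, by genotype at sites read at least 20 times; between cows of different ages they mark nothing in the labels. The pituitary test and the rule for separating gene models were tried on simulated data, and the other steps were not. The exact Clopper-Pearson 95% bounds of the shares of counts lie within 0.0062 percentage points of the share, which covers counting error only.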

Additional observations from a re-analysis of the deposited data

Results flagged for a closer look

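In 21 sets of values, over the 5 state B libraries (library measures only) or the 9 pituitary libraries, the highest or lowest library was compared with its neighbours. Dixon's ratio was used, which flags about 1 in 20 independent sets by chance, and 7 were flagged. The sets share libraries and related measures, and the 18-month pituitary replicate 2 had been singled out before. The number flagged is therefore not set against that rate. Values that set state B or chose its gene models were not screened there. Within state B, the 18-month hypothalamus replicate 1 had a total count of 36865318, above 30672120 to 32014981 in the others.

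Among the pituitary libraries, the 18-month replicate 2 stood at 100 on the gene models lower in state A (others -1.15 to 44.6) and had 9.43% of its counts in its 20 most abundant gene models (others 3.98% to 6.61%). The 18-month pituitary replicate 3 had counts in 18830 gene models (others 20190 to 20856), 10.6% of site reads in introns (others 19.9% to 22.9%) and 39.2% in 3′ UTRs (others 20.98% to 24.2%). The 30-month pituitary replicate 2 had 4.57 CPM of gene23152, which was at 0 in the other 8, so any count there would have been flagged.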

How the results depend on the processing

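Of 19707 gene models, 478 higher and 590 lower separated the states. Of the same 19707, 113 and 107 did so on log2 FPKM with a pseudocount of 1. The numbers were 1247 and 1336 at a 2-fold and 71 and 87 at a 16-fold difference. With each library left out they were 478 to 595 and 537 to 769. On a linear CPM scale, added after seeing the data, the places on the higher members were 43.1 for the 18-month hypothalamus replicate 2, 15.3 for the 18-month pituitary replicate 2 and 11.3 for the 30-month pituitary replicate 2, and on the lower members 70.9 for the hypothalamus library and 73.1 for the 30-month pituitary replicate 2; for the hypothalamus library this swaps which set lies nearer to state A. On the 107 lower gene models chosen anew on FPKM, the places were 27.5, 105.0 and 34.2 for these 3 libraries. On the lower members with at least 10 CPM they were 33.2, 105.7 and 34.6. Lower gene models with a difference of at least 1 gave 51.4 for the hypothalamus library. Leaving out each library, with the lower gene models chosen anew, gave 90.2 to 100 for the 18-month and 36.8 to 46.04 for the 30-month pituitary replicate 2. With FPKM, members passing 4-fold numbered 18 and 108 in the 18-month and 19 and 21 in the 30-month pituitary replicate 2, against 136, 385, 102 and 161; the shares over all gene models were 1.23%, 1.7%, 1% and 0.223%. The pituitary test called 1 gene model by edgeR, 22 by DESeq2 and 2 by limma-voom with sample quality weights. By edgeR it called 0 with age as a covariate and 0 with the cow of the intermediate library counted with state A. With each library left out it called 0 to 2. At unadjusted p under 0.05 there were 629 by edgeR, 1366 by limma-voom with sample quality weights and 452 to 874 with each library left out. With the replicate number as a block, which pairs nothing across ages here, it called 1, with 441 at unadjusted p under 0.05. The median site difference was 2.60 (higher) and -2.73 (lower) with a pseudocount of 0.1, and -1.84 (lower) over sites read in all 8 libraries. On FPKM and at 10 CPM, the within-age correlations were 0.589 and 0.661 between the hypothalamus differences, 0.245 and 0.327 between the 6-month hypothalamus and 30-month pituitary, and 0.386 and 0.425 between the 30-month tissues. The cause of these shifts was not tested. The p for age ran from 0.143 to 1 and for total count from 0.429 to 0.914 with each library left out. The mean total count, state A minus state B, was negative with all libraries and 965780 or 838613 when the 6-month replicate 3 or the 18-month replicate 1 was left out; 3 against 5 libraries limit what either test could show.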
